A study of Mus musculus with 16 samples.

Results

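In mIMCD3 cells, 25 of 55367 counted gene symbols had almost no reads before hyperosmotic stress and after 1 h of it, and were read in both libraries at 6 h. They were chosen on WT cells given DMSO alone: at most 3 raw read counts in each of the 4 isosmotic and 1 h libraries and at least 50 in each of the 6 h libraries, with symbols starting Slc, Trpv, Kcn, Hox, Hist, Aqp or Zfp left out, which removed 0 genes. In all, 31861 symbols met the first limit. Because the DMSO libraries chose the genes, their values in those libraries are a description, and the tests used the 10 sulforaphane (SFN) libraries, which the choice did not touch.

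mIMCD3 cells are a mouse epithelial line derived from the deepest part of the renal collecting duct, in the inner medulla. WT cells were treated for 5 h with DMSO or with 10 µM SFN, an activator of the transcription factor Nrf2 (gene Nfe2l2), and then kept isosmotic or moved to hyperosmotic medium of 600 mOsm for 1 h or 6 h. Nrf2-/- mIMCD3 cells, made with CRISPR/Cas9 delivered by lentivirus and selected with blasticidin and puromycin, were given SFN and kept isosmotic or stressed for 1 h. The 16 libraries made up 8 conditions of 2 biological replicates each. Nrf2-/- cells at 6 h and Nrf2-/- cells with DMSO were not analysed here, and whether the Nrf2-/- cells were 1 clone is not given in the sources used here.

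When the medium around a cell becomes hyperosmotic, water leaves, the cell shrinks and its ionic strength rises. The transcription factor NFAT5 then drives genes for the uptake and synthesis of organic osmolytes such as betaine, myo-inositol and sorbitol, and these genes build up over hours. Genes that are silent in a cell type are usually those of other lineages, and the collecting duct normally keeps neuronal, leukocyte and squamous epithelial genes off.

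Total counts per library lay between 34484296 and 50774875, and levels are given as raw counts or as CPM, counts scaled to a common library total. Nfe2l2 was read at 68.0 to 135 CPM in the WT libraries and at 10.6 to 12.1 CPM in the Nrf2-/- libraries. The pair of Nrf2-/- libraries at 1 h differed most between replicates, with a biological coefficient of variation of 0.293 against 0.0370 to 0.112 in the other 7 pairs. Epithelial and collecting duct genes such as Krt8, Krt18, Cdh16 and Pax2 were read in every library, whereas Aqp2, the vasopressin-regulated water channel that defines principal cells, had between 0 and 11 counts and Aqp4, another water channel of these cells, between 0 and 2. Some other genes of principal cells were read throughout: Scnn1a, a subunit of the epithelial sodium channel, had 24 to 157 counts, Gata3 5 to 301 and Tfcp2l1 820 to 2818 over the 16 libraries. Others on the same list were low: Scnn1b and Scnn1g, further subunits of that channel, had 0 to 13 and 0 to 4 counts. Aqp3 had 0 to 30, Avpr2 0 to 10 and Elf5 0 to 8. Gata2 had 56 to 183 counts in the WT libraries and 0 to 6 in the Nrf2-/- libraries. Other genes on this list also differed by genotype. In WT and Nrf2-/- libraries, Pax2 had 4993 to 39220 and 819 to 977 counts, Cdh16 6570 to 14870 and 488 to 900, and Gata3 87 to 301 and 5 to 31. Some went the other way, among them Krt7 with 7554 to 17188 and 31026 to 46198 and Epcam with 1875 to 4529 and 6595 to 13157.

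By annotation, 17 of the 25 were protein coding, 3 were processed pseudogenes, 2 were lincRNAs, and there was 1 transcribed unprocessed pseudogene (Fbxw23), 1 processed transcript (Muc19) and 1 gene of the annotation class TEC (4930412F12Rik). They lay on 13 chromosomes. Their products, where known, are best known from other tissues. They include members of the BPI fold family (Bpifb2, Bpifb6), a chitinase-like protein (Chil4), a mucin (Muc19) and a protein of the cornified envelope (Sprr2e). Others are a neuronal receptor and synaptic regulators (Grm4, Iqsec3, Rgs7bp), a leukocyte integrin (Itgam), a photoreceptor matrix proteoglycan (Impg2) and a steroid-metabolizing enzyme (Akr1c18). 

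RefSeq promoter windows on GRCm38.p6, 250 bases before to 50 after a transcription start, were at hand for 18 of the 25, with 25 windows in all. Of these, 7 are printed: those of the 6 genes most highly read at 6 h in SFN cells that have a window, and that of Itgam, the 1 member on a gene list. Capitals mark TGGAAA or, on the opposite strand, TTTCCA, the core that NFAT family proteins including NFAT5 recognise.
Bpifb6 (chr2:153900138-153900437, plus strand): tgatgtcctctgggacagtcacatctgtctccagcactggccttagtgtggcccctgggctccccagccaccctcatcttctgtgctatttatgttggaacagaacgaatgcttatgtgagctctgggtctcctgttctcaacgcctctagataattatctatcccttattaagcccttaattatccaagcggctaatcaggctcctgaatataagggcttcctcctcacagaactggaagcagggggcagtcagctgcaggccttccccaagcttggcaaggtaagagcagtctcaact
Iqsec3 (chr6:121473629-121473928, minus strand): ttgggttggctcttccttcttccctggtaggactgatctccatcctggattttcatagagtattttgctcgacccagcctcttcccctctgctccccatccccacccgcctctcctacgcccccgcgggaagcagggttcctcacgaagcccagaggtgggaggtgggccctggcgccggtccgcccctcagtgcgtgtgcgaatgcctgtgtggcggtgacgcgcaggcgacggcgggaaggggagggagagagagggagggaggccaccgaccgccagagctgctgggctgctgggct
Bpifb2 (chr2:153874795-153875094, plus strand): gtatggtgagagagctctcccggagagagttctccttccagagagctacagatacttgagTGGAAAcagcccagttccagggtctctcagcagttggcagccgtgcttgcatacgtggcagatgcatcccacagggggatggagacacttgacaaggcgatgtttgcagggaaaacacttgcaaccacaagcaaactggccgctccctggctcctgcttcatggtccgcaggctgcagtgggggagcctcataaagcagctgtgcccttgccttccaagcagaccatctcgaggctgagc
Akr1c18 (chr13:4150597-4150896, minus strand): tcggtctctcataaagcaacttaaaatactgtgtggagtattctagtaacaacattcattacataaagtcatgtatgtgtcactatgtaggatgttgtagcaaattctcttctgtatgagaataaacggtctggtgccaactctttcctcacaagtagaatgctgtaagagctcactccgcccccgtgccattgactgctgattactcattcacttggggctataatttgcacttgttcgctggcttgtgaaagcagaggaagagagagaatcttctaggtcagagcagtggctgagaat
Impg2 (chr16:56204063-56204362, plus strand): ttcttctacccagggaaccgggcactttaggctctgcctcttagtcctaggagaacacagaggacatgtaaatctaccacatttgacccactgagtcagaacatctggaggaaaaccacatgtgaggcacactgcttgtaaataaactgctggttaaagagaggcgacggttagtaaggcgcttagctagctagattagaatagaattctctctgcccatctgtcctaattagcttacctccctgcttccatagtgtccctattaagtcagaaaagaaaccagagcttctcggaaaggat
Sprr2e (chr3:92351893-92352192, plus strand): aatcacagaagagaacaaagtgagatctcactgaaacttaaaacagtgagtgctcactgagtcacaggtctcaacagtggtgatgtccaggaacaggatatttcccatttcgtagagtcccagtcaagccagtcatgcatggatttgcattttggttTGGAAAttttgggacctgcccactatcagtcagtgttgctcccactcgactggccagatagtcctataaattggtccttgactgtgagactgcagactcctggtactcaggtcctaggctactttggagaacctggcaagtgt
Itgam (chr7:128062390-128062689, plus strand): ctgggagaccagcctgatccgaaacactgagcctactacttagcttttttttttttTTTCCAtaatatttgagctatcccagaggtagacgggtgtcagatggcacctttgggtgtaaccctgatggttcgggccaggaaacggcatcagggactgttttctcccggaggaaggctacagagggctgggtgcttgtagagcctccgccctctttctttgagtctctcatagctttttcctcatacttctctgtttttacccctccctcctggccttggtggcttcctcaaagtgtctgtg
The core began 190 bases before the start in Bpifb2, 194 in Itgam and 93 in Sprr2e, and the Bpifb6, Iqsec3, Akr1c18 and Impg2 windows did not hold it. It was present in 8 of the 25 windows (32.0%), which belonged to 7 genes, and in 21.4% of all 32851 RefSeq windows of that length. On both strands, the AP-1 site TGANTCA was in 12% of the windows of these genes and in 7.81% of all, the antioxidant response element core TGACNNNGC, which Nrf2 recognises, in 8.0% and 12.4%, the heat shock core GAANNTTC in 8.0% and 7.86%, and TATAAA in 12% and 13.6%. The median number of CG dinucleotides was 6 per window against 7 over all windows. These matches are a description of letters in a short window, and more than 1 window of a gene can overlap.

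Low early reads and a late appearance were also seen in WT cells pretreated with SFN, though the early sums were higher than in DMSO cells. Summed over the 25 genes, the libraries held 0.859 and 0.768 CPM at isosmotic conditions, 0.898 and 0.674 CPM after 1 h and 66.1 and 65.5 CPM after 6 h. The DMSO libraries, which chose the genes, held 0.174 and 0.273, 0.385 and 0.560, and 65.0 and 71.6 CPM at the same stages. In both pretreatments every isosmotic and 1 h library held under 1 CPM for the whole group, and the 6 h libraries stood far above them.

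Of the 25 genes, 22 (88.0%) reached at least 50 counts in both SFN libraries at 6 h, against 9 of the other 31836 silent genes (0.0283%). The other 3, Ipcef1, Fgd5 and Bmpr1b, had lowest counts of 43, 47 and 31. Of the 25, 16 (64.0%) stayed at 3 or fewer counts in all 4 earlier SFN libraries, against 30046 (94.4%) of the other silent genes. When the whole rule was applied to the SFN libraries instead, it also gave 25 genes, and 13 were on both lists, 52.0% of each. Of the 12 DMSO-chosen genes not shared, 9 had over 3 counts in an early SFN library and 3 fell short of 50 at 6 h. Genes on the SFN list alone missed either limit in DMSO cells, for example Olfr455 with 46 and 55 counts at 6 h and Ptprc with 12 and 0 at 1 h.

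**Figure D1:**
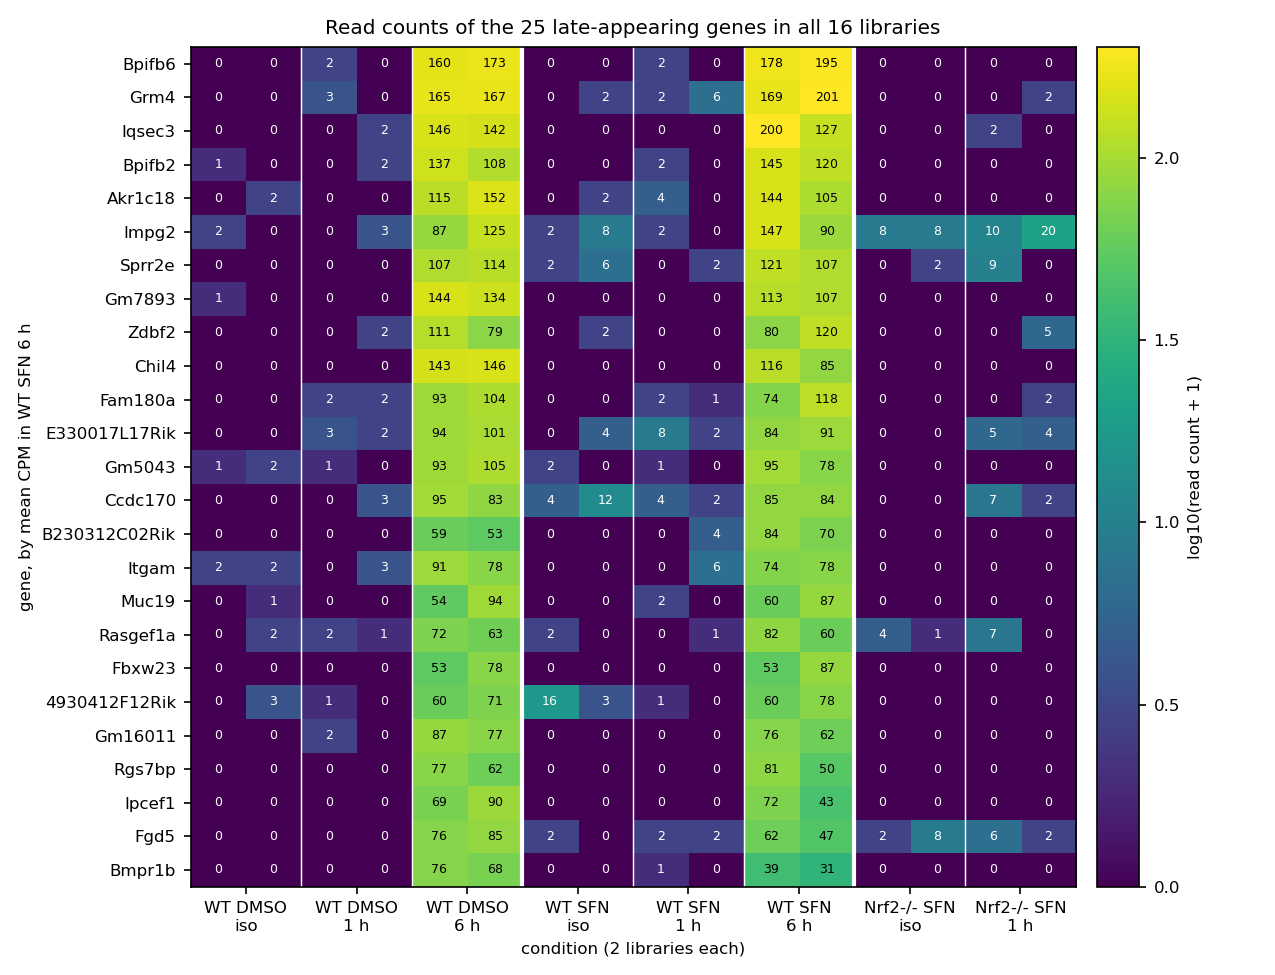
Raw read counts of the 25 genes (rows, ordered by mean CPM in WT SFN 6 h) in the 16 libraries (columns, 2 per condition), with colour on a log10(count + 1) scale and the count printed in each cell. The 6 h columns of DMSO and SFN hold 31 to 201 counts, and no other cell holds more than 20.

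In the SFN libraries, all 25 genes passed edgeR's test at 6 h against isosmotic and at 6 h against 1 h, each with an adjusted p (Benjamini-Hochberg over 18592 genes) under 0.05. Among all genes tested, 22.2% were higher at 6 h than at isosmotic and 18.9% were higher than at 1 h. DESeq2 called 18 of the 25 in each comparison. Leaving out 1 library took the edgeR adjusted p above 0.05 for 4930412F12Rik against isosmotic and for Itgam, B230312C02Rik and Bmpr1b against 1 h, at 0.0545 to 0.143. The share of the 25 is no support by itself, because 24 of them entered the test through their reads at 6 h: without those libraries, 1 of the 25 passed the filter on low counts. The adjusted p ran from 0.000114 to 0.0226 against isosmotic and from 0.000157 to 0.00938 against 1 h by edgeR's quasi-likelihood test. For each of the 25, the lower 6 h count was above the highest of the 4 earlier SFN counts, and both 6 h libraries stood above the other 4 in CPM for 32% of all genes tested. A higher level per cell and more cells with the transcript cannot be told apart in RNA from whole cultures.

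Because so many of the earlier counts were 0, the size of the rise is given as a bound or as a ratio with its counting interval. For 14 genes with 0 counts in both isosmotic SFN libraries, the level per effective library size at 6 h was at least 32.3-fold to at least 172-fold higher, taking 3 counts over the pair of libraries as the floor. For the other 11 the ratio ran from 10.1 to 256. Against 1 h, 8 genes were at least 45.5-fold to at least 129-fold higher, and the ratio of the other 17 ran from 20.8 to 221. Both ends of the range against isosmotic rested on 1 library: 4930412F12Rik, at 10.1, had a ratio of 4.88 without isosmotic replicate 2 and 37.7 without replicate 1, and Grm4, at 256, had a ratio of 151 without replicate 1 and a bound of at least 69.8-fold without replicate 2, the remaining library being at 0. These intervals cover counting error only and treat counts as independent, so they can be too narrow.

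**Figure D2:**
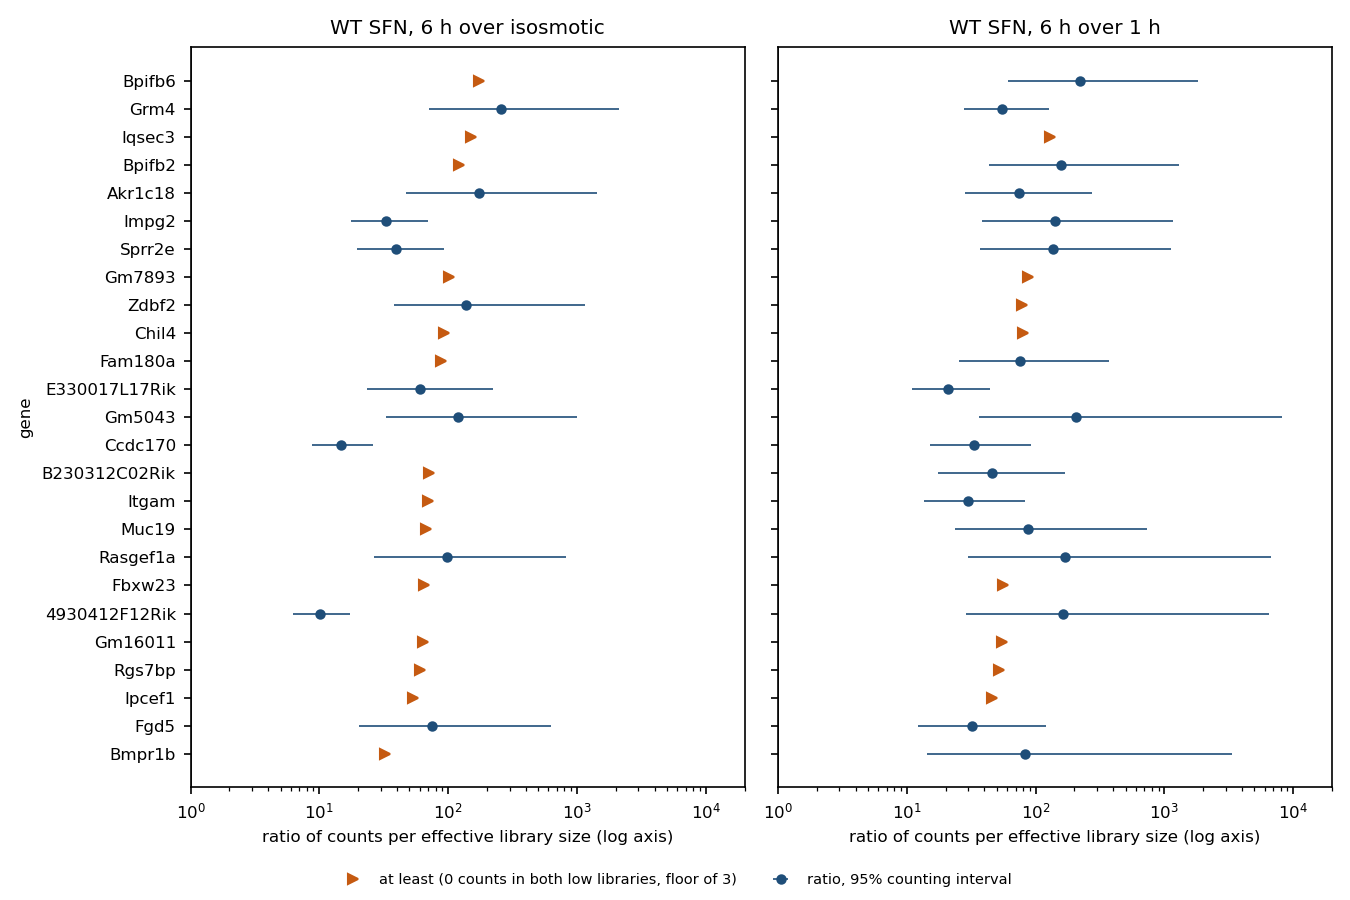
Ratio of counts per effective library size in WT SFN cells (log axis), 6 h over isosmotic at left and 6 h over 1 h at right, for each of the 25 genes. Circles with lines are ratios with a 95% counting interval and triangles are lower bounds for genes with 0 counts in both earlier libraries; the smallest ratio, 10.1 for 4930412F12Rik, still lies above 1.

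Among the BPI fold, chitinase-like, mucin and cornified envelope genes, a pair of neighbours on chromosome 2 was among the most highly read. Bpifb6 (chr2:153900388-153912795) encodes a protein of the BPI fold family, whose members bind lipids and bacterial lipopolysaccharide. It had 0 and 0 counts in the isosmotic SFN libraries, 2 and 0 at 1 h and 178 and 195 at 6 h. Its level at 6 h was at least 172-fold above isosmotic and 221-fold above 1 h (interval 60.8 to 1834). Bpifb2 (chr2:153875045-153895270), a second member of the family, had 0 and 0, then 2 and 0, then 145 and 120 counts. Both were at 0 in all 4 Nrf2-/- libraries, and both 6 h libraries of each gene were clear of every earlier one.

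Chil4 (chr3:106201490-106219507), a secreted chitinase-like protein also called Ym2, is among the cleanest cases, with 0 counts in all 8 earlier SFN and Nrf2-/- libraries and 116 and 85 at 6 h. Sprr2e (chr3:92352143-92353449), a small proline-rich protein of the cornified envelope of squamous epithelia, had 2 and 6 counts at isosmotic, 0 and 2 at 1 h and 121 and 107 at 6 h. It was therefore not silent in 1 isosmotic SFN library, and its 6 h level was 39.5-fold above isosmotic (19.7 to 92.5). Muc19 (chr15:91838326-91934555), a gel-forming mucin of mucous glands, had 0 and 0, 2 and 0, and 60 and 87 counts. It was one of the 3 genes closest to the limit in the DMSO libraries, with 54 as its lower 6 h count.

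Grm4 and Bmpr1b are receptors, and Iqsec3, Rasgef1a, Ipcef1 and Fgd5 act on small GTPases. Grm4 (chr17:27422387-27521403), a metabotropic glutamate receptor that couples to inhibitory G proteins, had 0 and 2 counts at isosmotic, 2 and 6 at 1 h and 169 and 201 at 6 h. Its level rose 54.9-fold over 1 h (27.6 to 128). Iqsec3 (chr6:121372933-121473678), an exchange factor for Arf GTPases at inhibitory synapses, had 0 counts in all 4 earlier SFN libraries and 200 and 127 at 6 h, at least 151-fold above isosmotic. With Bpifb6, these were the 3 most highly read of the 25 in CPM.

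Rasgef1a, an exchange factor for Ras family GTPases, had 2 and 0, 0 and 1, and 82 and 60 counts. Ipcef1, which binds the cytohesin exchange factors of Arf6, had 0 in all 4 earlier libraries and 72 and 43 at 6 h. Fgd5, an exchange factor for Cdc42 that marks endothelial cells, had 2 and 0, 2 and 2, and 62 and 47. Each of these 3 had its higher 6 h count in the first library, and the lower one still exceeded all earlier counts.

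Bmpr1b (chr3:141837136-142169425), a type I receptor for bone morphogenetic proteins, was the lowest of the 25 in SFN cells, with 0 and 0, 1 and 0, and 39 and 31 counts. Its 6 h level was at least 32.3-fold above isosmotic. Rgs7bp, which anchors R7 family RGS proteins to the membrane, had 0 counts in all 8 earlier SFN and Nrf2-/- libraries and 81 and 50 at 6 h. Rgs7bp, Gm5043, Gm16011 and 4930412F12Rik fell outside the rule for named genes and were named after their values were seen.

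Itgam (chr7:128062640-128118491) encodes the integrin αM chain, CD11b, of myeloid cells. It was the single member on any of the 18 gene lists drawn up for pathways and cell types. Genes on these lists that were read above the low limit before stress could not be members. It had 0 and 0 counts at isosmotic, 0 and 6 at 1 h and 74 and 78 at 6 h in SFN cells, and 0 in the Nrf2-/- cells. Of the 16 immune cell markers, 9 could be tested and 6 were higher at 6 h than at isosmotic, against 22.2% of all genes tested, with the summed list moving from 12.8 to 13.3 CPM at isosmotic and 17.3 to 17.6 CPM at 1 h to 36.0 to 36.7 CPM at 6 h. Ptprc (CD45) went from 2 and 1 counts to 180 and 146 and Cd79a, of the B-cell receptor, from 17 and 4 to 331 and 316. Tyrobp, an adaptor of myeloid cells, and Cd3d, of the T-cell receptor, were at 0 in all 16 libraries. On the list of the cells' own collecting duct and epithelial genes, 9 of 17 tested were higher and 1 lower. Their sum went from 2641 to 2894 CPM at isosmotic to 4680 to 4947 CPM at 6 h. Markers of other cell types also rose: 4 of 5 tested endothelial genes were higher, 4 of 5 of other kidney segments, 4 of 7 of liver and gut, 3 of 4 of muscle, 3 of 6 of fibroblasts, 2 of 3 of germ cells, 2 of 5 of neurons and 2 of 4 of blood cells, with 0 lower on each of these other lists. Many of these markers had 0 counts in both isosmotic SFN libraries: 9 of the 16 immune, 4 of the 8 endothelial and 7 of the 13 germ cell genes. Such genes could not be lower at 6 h and entered the test mostly through reads under stress. Of tested genes under 1 CPM before stress that were not members, 33.4% were higher. The part of these markers in the values of the 25 was not tested.

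Impg2 (chr16:56204313-56273756), a proteoglycan of the matrix around photoreceptors, had 2 and 8 counts at isosmotic, 2 and 0 at 1 h and 147 and 90 at 6 h. Akr1c18 (chr13:4132615-4150654), the 20α-hydroxysteroid dehydrogenase that inactivates progesterone, had 0 and 2, 4 and 0, and 144 and 105. Zdbf2 (chr1:63273265-63314576), an imprinted gene expressed from the paternal allele, had 0 and 2, 0 and 0, and 80 and 120. In all 3, the replicates at 6 h differed by a wider margin than those of Bpifb6, and both stood above the earlier counts.

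Fam180a (chr6:35312668-35326141), whose function is little known, had 0 and 0, 2 and 1, and 74 and 118 counts. Ccdc170 (chr10:4482502-4562231), a coiled-coil protein associated with microtubules, had the most reads in the WT SFN isosmotic libraries among members coding for protein: 4 and 12 at isosmotic, 4 and 2 at 1 h, and 85 and 84 at 6 h. Its 6 h level was 14.6-fold above isosmotic (8.75 to 26.2). Fbxw23, an F-box and WD repeat gene annotated as a transcribed pseudogene, had 0 in all 8 earlier SFN and Nrf2-/- libraries and 53 and 87 at 6 h.

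Of the noncoding genes, the pseudogene Gm7893 (chr1:31164549-31164773) was the most highly read, with 0 counts in all 8 earlier SFN and Nrf2-/- libraries and 113 and 107 at 6 h. E330017L17Rik (chr4:129906216-129919787), a lincRNA, had 0 and 4, 8 and 2, and 84 and 91, the smallest ratio of 6 h to 1 h among the 25 at 20.8 (11 to 44.1). The lincRNA B230312C02Rik had 0 and 0, 0 and 4, and 84 and 70. The pseudogenes Gm5043 and Gm16011 had 95 and 78, and 76 and 62 counts at 6 h, with at most 2 in any earlier SFN library. Gm16011 lies inside Gm609 on the same strand. Gm609 had 0 counts in all 4 earlier SFN libraries and 49 and 31 at 6 h, and reads of Gm609 and Gm16011 cannot be told apart here. For processed pseudogenes, reads can come from a near-identical parent gene elsewhere, and how the authors counted such reads is not given in the sources used here.

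4930412F12Rik lies inside Galnt7 on the same strand, and it was the only 1 of the 25 overlapping a gene of at least 1 CPM before stress. It had 16 and 3 counts at isosmotic, 1 and 0 at 1 h and 60 and 78 at 6 h. Galnt7, a glycosyltransferase of mucin-type glycosylation, had 931 and 1528 counts at isosmotic and 1884 and 1655 at 6 h, a log2 difference of 1.01 ± 0.13 (SE). Leaving out WT SFN isosmotic replicate 2 or either 6 h library took the edgeR adjusted p of 4930412F12Rik above 0.05, to 0.0813, 0.0818 and 0.143. 4930412F12Rik also overlaps AW046200 on the other strand, a gene under 1 CPM at isosmotic. AW046200 had 21 and 29 counts at isosmotic, 7 and 4 at 1 h and 124 and 135 at 6 h in SFN cells. Whether counting used strand is not given in the sources used here. Reads of Galnt7, of AW046200 and of 4930412F12Rik cannot be told apart here.

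Compared per length, the order of the genes changed. In CPM per kilobase of exon (RPKM) at SFN 6 h, the 25 ran from 0.160 for Bmpr1b to 13.4 for Gm7893, whose exonic length is 225 bases, with a median of 0.849. Iqsec3, among the highest in CPM, had 0.327 RPKM over 13577 exonic bases. On the same scale Sprr2e had 4.81, Bpifb6 3.06, Akr1c18 2.81, Bpifb2 1.73 and Grm4 0.849.

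At 6 h, DMSO and SFN cells are set side by side as a description, since the DMSO values chose the genes. The ratio of mean CPM, SFN over DMSO, had a median of 0.986 and ran from 0.488 to 1.38. For 19 genes the replicates of the pretreatments overlapped, for 5 both SFN libraries were lower and for 1 both were higher. Bmpr1b had the lowest ratio, with 1.96 ± 0.07 CPM (SD, n = 2) in DMSO and 0.954 ± 0.112 in SFN. Chil4 had 3.93 ± 0.23 and 2.74 ± 0.48, and the gene with higher SFN values, B230312C02Rik, had 1.52 ± 0.05 and 2.10 ± 0.18. The choice itself favours high DMSO values, and no test was made.

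**Figure D3:**
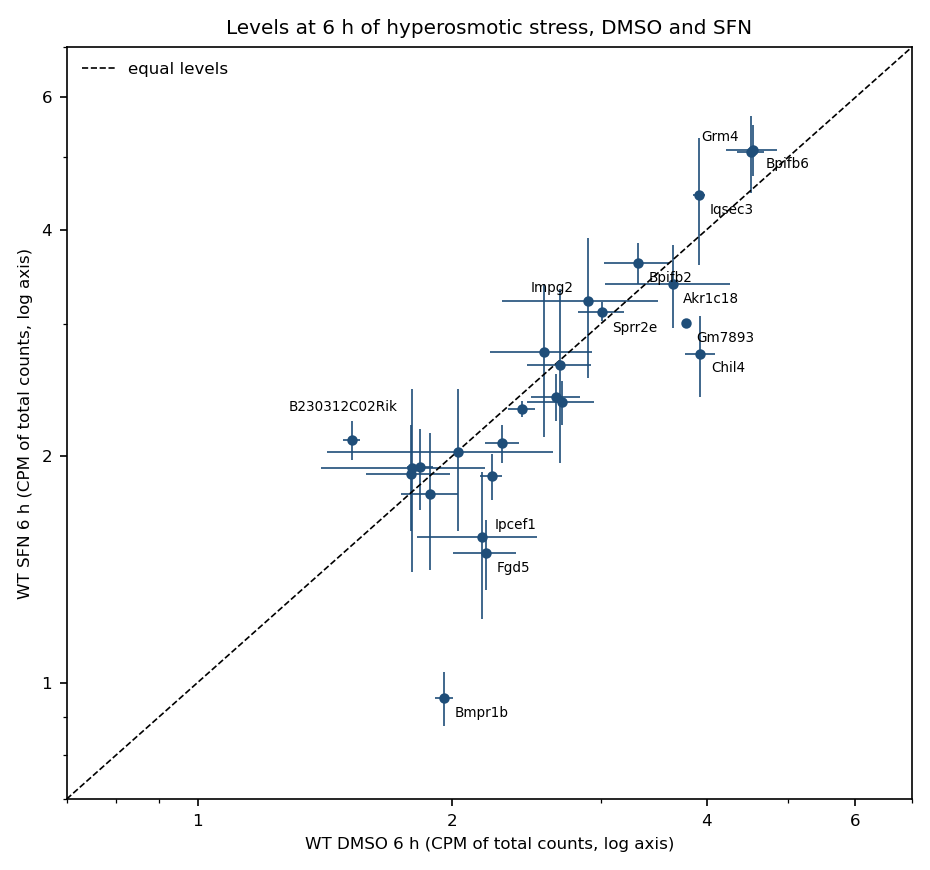
Mean CPM of the 25 genes at 6 h in WT DMSO (x axis) and WT SFN (y axis), both on log axes, with lines from the lower to the higher of the 2 libraries and a dashed line at equal levels. Most genes lie along the line, and Bmpr1b lies farthest below it at 1.96 and 0.954 CPM.

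After 1 h of stress in SFN cells, 0 of the 25 genes passed edgeR's test against isosmotic, where 4% of all genes tested were higher and 2.33% lower. At an unadjusted p under 0.05 there was 1, 4930412F12Rik, lower at 1 h, against 18.7% of all genes tested in either direction, and DESeq2 called 0. With the floor this low, a small early change would not be detectable at this depth: at most 8 counts were read for any of the 25 in a 1 h SFN library. The highest was E330017L17Rik, with 8 and 2.

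In Nrf2-/- cells with SFN, 18 of the 25 had 3 or fewer counts in all 4 libraries and 15 had 0 in all 4. No Nrf2-/- library at 6 h was analysed, so these libraries bear on the silence and not on the late rise. By edgeR, 0 of the 25 passed at 1 h against isosmotic in Nrf2-/- cells, where 2.94% of all genes tested were higher and 1.72% lower. At an unadjusted p under 0.05 there were 2, E330017L17Rik with 0 and 0 counts at isosmotic and 5 and 4 at 1 h, and Ccdc170 with 0 and 0, and 7 and 2, against 16.9% of all genes tested. DESeq2 called 0. The difference between the 1 h responses of the genotypes passed for 0 of the 25, against 0.00538% of all genes tested that were higher and 0% lower, with 2 at an unadjusted p under 0.05 (Impg2 and Ccdc170), where 5.66% of all genes were, and 0 by DESeq2. Of the 25, 21 were at 0 in both libraries of at least 1 of the 4 conditions, so for these the difference of responses could not be estimated from the counts. The calls over all genes rested on the Nrf2-/- libraries at 1 h: in place of 1 higher and 0 lower there were 778 and 972 without replicate 1, with 0 of the 25 called, and 572 and 445 without replicate 2, with 1 called.

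Against WT cells with SFN, Impg2 was the member with most reads in Nrf2-/- cells. Its counts were 8 and 8 at isosmotic and 10 and 20 at 1 h, against 2 and 8, and 2 and 0 in WT. At 1 h it was the 1 gene of the 25 called, 16.8-fold higher in Nrf2-/- cells (interval 4.27 to 145, edgeR adjusted p = 0.0117), where 12.8% of all genes tested were higher and 12.9% lower. The call was lost without WT SFN 1 h replicate 2, with an adjusted p of 0.0867, and in a fit of the groups compared alone, with 0.103. The highest of these counts, 20, was below the 90 and 147 of WT SFN cells at 6 h.

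At isosmotic conditions, 2 of the 25 were lower in Nrf2-/- than in WT cells with SFN, where 13.7% of all genes tested were higher and 15.3% lower. Ccdc170 had 0 and 0 counts against 4 and 12, at least 4.23-fold lower (edgeR adjusted p = 0.0181), and 4930412F12Rik had 0 and 0 against 16 and 3, at least 5.02-fold lower (adjusted p = 0.0491). Ccdc170 lost its call without WT SFN isosmotic replicate 2 or without either Nrf2-/- isosmotic library, with adjusted p of 0.0776 to 0.0885, and 4930412F12Rik lost its call without WT SFN isosmotic replicate 1 or either Nrf2-/- isosmotic library, with 0.160 to 0.213. Sprr2e, Rasgef1a and Fgd5 also had scattered reads in Nrf2-/- cells: 0, 2, 9 and 0 counts for Sprr2e, 4, 1, 7 and 0 for Rasgef1a, and 2, 8, 6 and 2 for Fgd5.

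The position of the 25 genes in the genome was examined on GENCODE M21 (GRCm38, the build named mm10 by the authors), where 53186 of the 55367 symbols (96.1%) and all 25 members were found. Upstream neighbours on the same strand were counted first, since reads can continue past the end of an active gene. Within 10 kb upstream on the same strand, 1 of the 25 (4.0%) had a gene of at least 1 CPM in isosmotic SFN cells, against 1.90% of 30377 other silent genes. That member was E330017L17Rik, 6314 bases past Gm12966. Within 100 kb the shares were 52.0% and 16.4%, and 4.0% of the members overlapped such a gene on either strand against 13.9% of the other silent genes. Genes that became active only under stress do not enter these shares: Bpifb2 ends 5118 bases before Bpifb6 on the same strand and had 3.62 CPM in SFN cells at 6 h. Whether reads of the 25 continued from an upstream gene was not tested, and reads between genes were not analysed here.

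Several of the 25 stood beside other genes that rose late. This was noticed in the values and then counted, with a window of 100 kb, so it carries no test. Around the 25 lay 77 tested genes that were not members, and 52 of them (67.5%) were higher at 6 h than at isosmotic in SFN cells, against 22.2% of all genes tested. Neighbours nearly silent at isosmotic could enter the test through their reads at 6 h. The 34 with at least 1 CPM at isosmotic were therefore counted apart, and 15 (44.1%) were higher, against 16.8% of the 12262 expressed genes tested. Of the 43 neighbours under 1 CPM, 37 (86.0%) were higher, against 33.4% of the 5857 tested genes under 1 CPM that were not members. Of the 25, 21 (84.0%) had a gene called higher within 100 kb, other members and nearly silent genes included, against 22.4% of the 30377 other silent genes.

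Iqsec3 stood end to end with Slc6a12, the betaine and GABA transporter BGT1 and a textbook NFAT5 target. The genes lie on opposite strands with their 3′ ends 7158 bases apart. Slc6a12 had 0 counts in all 4 earlier SFN libraries and 876 and 840 at 6 h. It met the choice at 6 h with 877 and 896 counts in DMSO cells and missed the low limit through 4 counts in 1 library at 1 h; its symbol would also have left it out. Whether counting used strand is not given in the sources used here, so the strand of the reads assigned to Iqsec3 is not known.

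Bpifb2 and Bpifb6 lie 5118 bases apart on the same strand, and Bpifb2 starts 3961 bases from Sun5, a gene of the sperm nuclear envelope on the other strand. Sun5 had 0 and 1 counts at isosmotic, 5 and 3 at 1 h and 71 and 50 at 6 h. Efcab8, 30294 bases before Bpifb2, had 6 and 26, 49 and 26, and 366 and 275. Bpifb2, Bpifb6, Sun5 and Efcab8 were all higher at 6 h (edgeR adjusted p = 0.000905 for Sun5 and 8.07e-05 for Efcab8).

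Around Itgam, the integrin αX gene Itgax (CD11c) follows 11056 bases downstream on the same strand, and had 0 and 0, 2 and 0, and 284 and 208 counts in SFN cells. It failed the low limit in DMSO cells, with 3 and 2, 8 and 11, and 243 and 251. Upstream, Pycard, the inflammasome adaptor ASC, went from 15 and 12 counts at isosmotic to 296 and 278 at 6 h and Trim72, a membrane repair protein of muscle, from 13 and 10 to 243 and 265. Of the 9 genes tested within 100 kb of Itgam, 8 were higher at 6 h.

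Further pairs were of the same kind. The pseudogene Gm5210, 2495 bases from Gm5043, had 0 counts in all 4 earlier SFN libraries and 59 and 56 at 6 h. Lgsn, a lens protein related to glutamine synthetase, lies 11628 bases past Gm7893 and had 0 and 0, 8 and 0, and 104 and 52. Spocd1, 9462 bases from E330017L17Rik, had 0 and 0, 8 and 2, and 250 and 297. Near Sprr2e, the related Sprr2k went from 2 and 0 to 126 and 121 and Sprr1b from 4 and 19 to 216 and 221. Slco4a1, an organic anion transporter within 100 kb of B230312C02Rik, was expressed before stress, with 524 and 782 counts, and reached 29792 and 29498. The neighbours named here were picked after their values were seen.

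**Figure D4:**
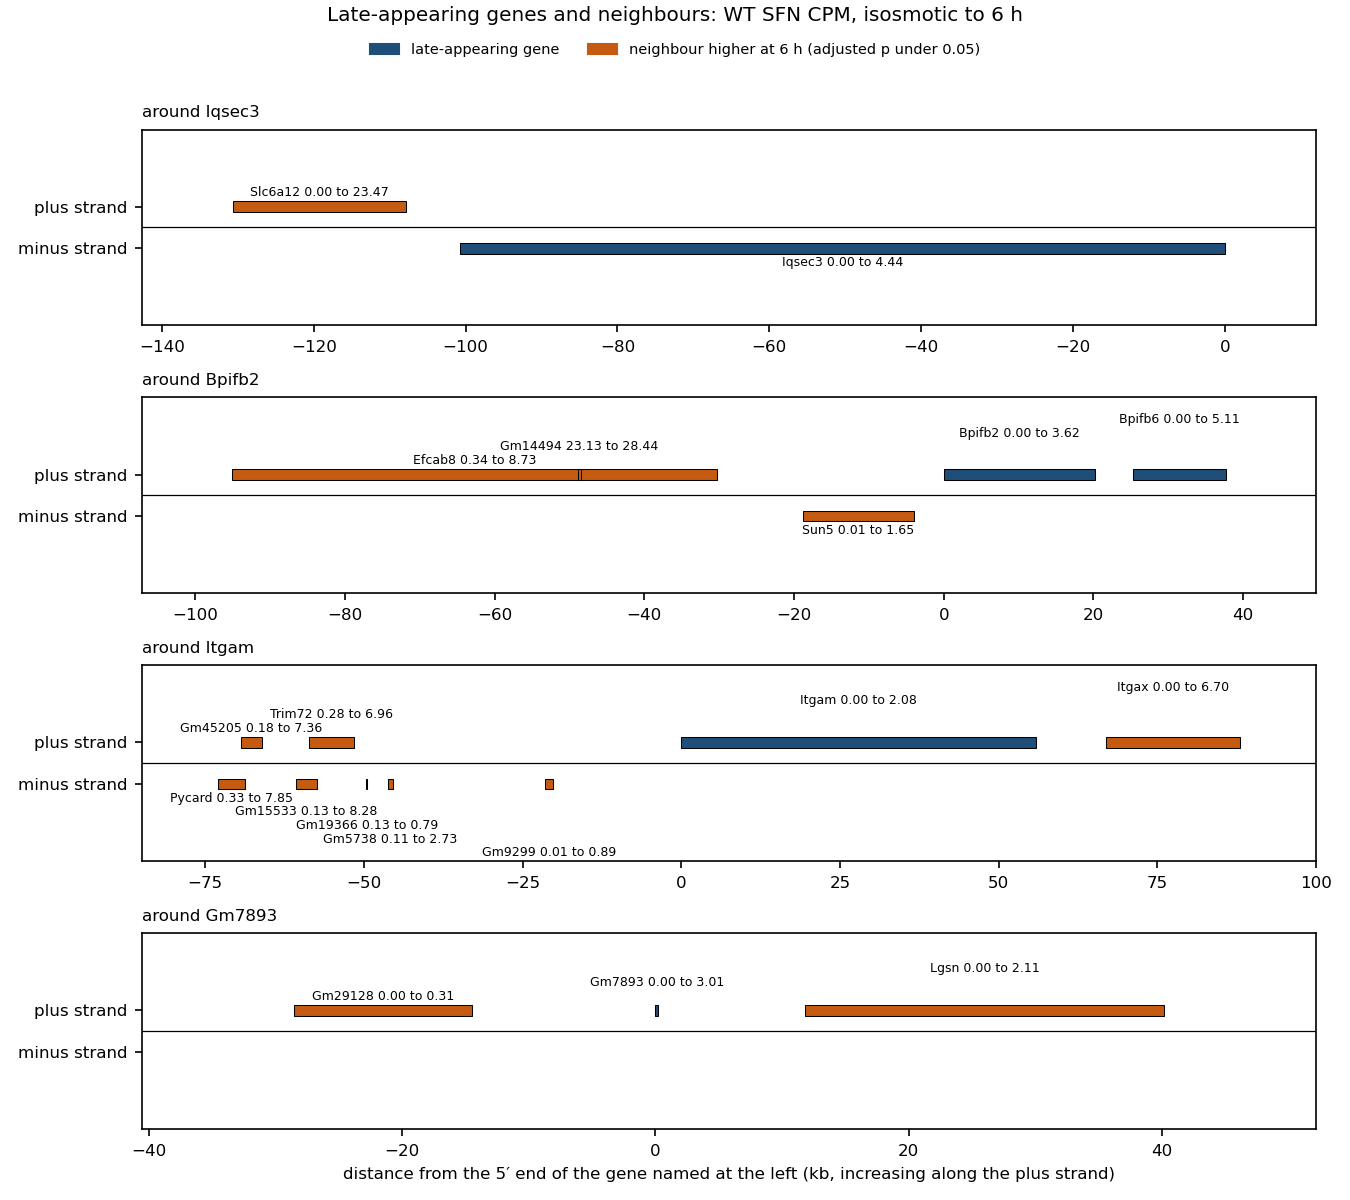
Genes called higher at 6 h within 100 kb of Iqsec3, Bpifb2, Itgam and Gm7893, 4 loci picked after the values were seen, drawn by strand against the distance in kb from the 5′ end of the named gene. Numbers are mean CPM in WT SFN cells, isosmotic to 6 h; late-appearing genes are blue and neighbours called higher are orange. Tested neighbours that were not called are not drawn; around Itgam, 8 of 9 are drawn.

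None of the 25 was on the list of 21 NFAT5 and osmolyte genes, of which 17 of the 19 tested were higher at 6 h and 1 lower (median log2 difference 3.42, against 0.06 over all genes tested). Of the 28 Nrf2 target genes tested, 2 were higher and 7 lower (median −0.06). None of the 25 was on that list either. The choice itself kept most of these genes out. Of the 21, 12 had 10 or more counts in both isosmotic DMSO libraries, and of the 28, 27 had. Symbols starting Slc or Aqp on the first list were left out as well. The absence from both lists is therefore no result about the 25.

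The limits of the choice were not a gap in the values. The 3 genes just inside the limit of 50 were B230312C02Rik with 59 and 53 counts in the DMSO 6 h libraries, Fbxw23 with 53 and 78 and Muc19 with 54 and 94. Just outside were Cabp2 with 74 and 49, Gpr149 with 48 and 65 and Krtap3-2 with 76 and 48. Of the silent genes, 198 had at least 10 counts in both DMSO libraries at 6 h, 98 had at least 20, 54 at least 30 and 8 at least 100, so the 25 are the upper end of a continuous series. Another 7 genes reached 50 at 6 h but had 4 counts in 1 earlier library, among them Slc6a12, Baat, the bile acid conjugating enzyme, and the homeobox gene Meox2.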

How the data were processed

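RNA-seq of mIMCD3 cells was analysed for 16 libraries in 8 conditions of 2 biological replicates. The authors aligned reads to mm10 (Hisat2 in the methods, Bowtie2 in the submitters' processing notes), used SAMtools for sorting and featureCounts to obtain read totals for each gene symbol; versions, annotation and strand setting are not given in the sources used here. They deposited raw counts, 1 library at a time. Lines without a gene name (5, in 2 libraries) were left out. Among counts of 1 to 10, between 58.0% and 68.5% were even numbers, so counts need not be independent fragments. The extraction label names primary cells, all others mIMCD3. Conditions came from the sample titles.

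The genes, gene lists and tests were chosen with earlier results of these data known. edgeR 4.0.16 (R 4.3.3, limma 3.58.1) was fitted to the 10 SFN libraries, which the choice of genes did not use: TMM normalization, the edgeR filter on low counts (18592 genes kept), a robust quasi-likelihood test with 1 coefficient per condition, and Benjamini-Hochberg adjusted p under 0.05 over all genes kept. On counts simulated for the comparison of WT SFN 6 h with isosmotic (17571 genes), 126 of 192 changed genes were recovered with 8 false calls. Values in DMSO libraries were described without a test. CPM is per total count. Bounds took 3 counts over a pair of libraries as the floor. The 95% intervals are exact only for independent counts, which these need not be, so intervals can be too narrow and bounds too high.

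Genes were named if they were among the 12 highest in CPM at SFN 6 h or the 3 lowest, on a gene list, read at 4 or more in both isosmotic or both 1 h SFN libraries, among the 5 with most Nrf2-/- reads, or among the 3 on either side of the limit of 50. Positions came from GENCODE M21 and promoters from RefSeq. Alternatives were DESeq2 1.42.0, RLE size factors, no filter, all 16 libraries, the compared groups or the WT SFN libraries alone, a replicate block, each library left out, other limits of the choice and other distances.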

Additional observations from a re-analysis of the deposited data

How the results depend on the processing

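The rise of the 25 genes at 6 h kept its direction under every alternative run, and the number called stayed between 18 and 25 against isosmotic and against 1 h. DESeq2 called 18 of 25 in both comparisons, losing Zdbf2, Chil4, B230312C02Rik, Itgam, Fbxw23, Rgs7bp and Ipcef1 (adjusted p 0.105 to 0.158 against isosmotic and 0.0741 to 0.449 against 1 h). Leaving out 1 library gave 24 to 25 against isosmotic and 22 to 25 against 1 h. The genes lost were 4930412F12Rik against isosmotic, and Bmpr1b (without WT SFN 1 h replicate 2 or either 6 h library), Itgam (without either 6 h library) and B230312C02Rik (without WT SFN 6 h replicate 1) against 1 h. Where only 1 library of a condition was left, it was assumed to vary like the others.

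The comparisons without the 6 h libraries rested on at most 20 counts per gene and library. Without the filter on low counts, 1 gene (0 higher, 1 lower) was called at 1 h in WT cells and 2 at 1 h in Nrf2-/- cells, where none had been; leaving out 1 library gave 0 to 0 and 0 to 1. The 2 calls of Nrf2-/- against WT at isosmotic became 1 with RLE size factors, and 0 to 1 with 1 library left out. The 1 call at 1 h became 0 in a fit of the groups compared alone and 0 to 2 with 1 library left out, and the difference of the 1 h responses went from 0 to between 0 and 1. A fit of the groups compared alone could test none of the 25 for WT 1 h against isosmotic or for the genotypes at isosmotic. Replicate numbers did not pair the samples: correlations of deviations lay between -0.09 and 0.14 over 10 pairs of conditions, with 1 over 0.1. With the replicate block, 1 gene was called for the genotypes at isosmotic in place of 2, and the block changed no other count of calls.

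Limits of at most 1 and at least 100 counts gave 3 genes, at most 5 and at least 30 gave 78, and at most 10 and at least 50 gave 73, with all 25 inside the latter 2 lists. Scaling counts to the median total gave 23 genes, 22 of them shared. With at least 30 counts at 6 h, the SFN libraries gave 59 genes in place of 25. Within 5 kb, 0 of the 25 had a gene expressed at isosmotic upstream on the same strand, and within 20 kb, 3 had. A 50 kb window, added after the data were seen, gave 75.0% of neighbours higher in place of 67.5%. Depth limits every statement on early reads.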
